A study of Mus musculus with 9 samples.

Results

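The 7 genes described here act in, or have been linked to, the active removal of DNA methylation: the TET dioxygenase genes Tet1, Tet2 and Tet3, the thymine DNA glycosylase gene Tdg, and the growth arrest and DNA damage genes Gadd45a, Gadd45b and Gadd45g. They were followed on 9 mouse arrays through the array rows whose probes name a single one of these symbols. Of 34760 array rows, 9 met this rule and covered 6 of the 7 genes, out of 19937 genes with a row of their own. Tet1 had 3 rows, Tet3 had 2 and Tet2, Gadd45a, Gadd45b and Gadd45g had 1 each. Tdg had 0, because its 4 rows also name the pseudogene Tdg-ps2. The row of a gene with the highest mean over the 9 arrays served as its main row.

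TET enzymes use iron and 2-oxoglutarate to oxidise 5-methylcytosine, a step that can lead to its loss either through replication or through excision by TDG followed by base excision repair. Tet1 and Tet2 are known as the TET genes of mouse embryonic stem cells. GADD45 proteins are small acidic proteins induced by stress and growth arrest. They bind PCNA, cyclin-dependent kinase and MAP kinase kinase kinase partners, and a role in guiding demethylation to particular genes has been proposed for them.

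The arrays measured total RNA at 3 stages of a secondary reprogramming system, in which cells already carrying the factors are induced again, and the design asks how expression changes over these stages. Every group carried the OG2-GFP and Rosa26-M2rtTA alleles, an Oct4-GFP reporter and a doxycycline-responsive transactivator, so the controls had them too. The fibroblast group (3 arrays) was passage 4 cells from mice made with TSKM iPS cells, named for Tet1, Sox2, Klf4 and c-Myc. The TSKM-3D group (3 arrays, called day 3 below) was the same kind of passage 4 culture after 3 days in embryonic stem cell medium with doxycycline, so the agent and the medium changed together. The iPS group (3 arrays) was an iPS cell line of this system at passages 10 to 15. It was grown with LIF on mitomycin C-treated mouse embryonic fibroblasts, which were depleted by a short replating step before RNA extraction. Fibroblast markers still carried signal in the iPS arrays, as given below, and whether remaining feeder RNA entered the iPS readings was not tested. Tet1 is therefore both an introduced factor and a member of the set described. Whether its array rows read the introduced copy, the cell's own gene or both was not tested.

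One caution concerns the groups: the cell type label of the third fibroblast array names 3-day induced cells, while its title, source and passage label name uninduced fibroblasts. Here it counts as fibroblast. Across array rows, which are not independent replicates, its correlation was 0.9952 and 0.9965 with its group and 0.9531 to 0.9586 with the induced cells. Summed levels of pluripotent and fibroblast markers followed the group labels, but single markers did not all do so. At day 3 against fibroblasts, 2 of 13 pluripotent markers were called higher (Pou5f1 and the introduced Sox2) and 0 lower. Of 12 fibroblast markers 7 were called lower and 1 higher (Twist1, 1.24) at day 3. From day 3 to iPS 7 of these were lower and 1 higher (Dcn, 1.45). The summed linear level (deposited values taken out of log2 and added) of 13 pluripotent cell markers ran from 561 to 570 in fibroblasts, from 767 to 890 at day 3 and from 37319 to 37646 in iPS cells. That of 12 fibroblast markers was 42263 to 42602, 28303 to 29382 and 11009 to 12549, and 13 macrophage markers summed to 2062 to 2201, 716 to 828 and 2703 to 3092. In iPS cells 11 of these 13 lay below the array median, Laptm5 (mean 10.62) and Cd68 (9.59) being the others, and against fibroblasts 5 were called lower and those 2 higher. Of the introduced factors other than Tet1, Sox2 was higher at day 3 than in fibroblasts by 1.39 ± 0.0865 SE and Myc by 1.60 ± 0.0761 on the log2 scale, while the Klf4 difference was 0.04 ± 0.086 (limma, Benjamini-Hochberg adjusted p = 1.36e-07, 1.95e-08 and 0.708, n = 3 arrays per group).

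Because all day-3 readings of the 3 Gadd45 genes lay above their fibroblast readings, as given further on, the 250 bases before the RefSeq start of each (GRCm38.p6) are shown, written 5′ to 3′ on the gene's strand. Capitals mark 4 motifs searched on both strands: the octamer ATTTGCAT, the E-box CACGTG, the CCAAT box CCAAT and the TATA box TATAAA. The motifs were chosen after the windows had been read. The windows are chr6:67037408-67037657 (minus strand) for Gadd45a, chr10:80929841-80930090 (plus strand) for Gadd45b and chr13:51846425-51846674 (plus strand) for Gadd45g.
Gadd45a: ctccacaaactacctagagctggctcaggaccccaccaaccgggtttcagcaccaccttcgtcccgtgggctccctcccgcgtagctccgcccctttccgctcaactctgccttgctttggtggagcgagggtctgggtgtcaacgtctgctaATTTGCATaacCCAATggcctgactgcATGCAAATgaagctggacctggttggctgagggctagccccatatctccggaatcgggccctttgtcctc
Gadd45b: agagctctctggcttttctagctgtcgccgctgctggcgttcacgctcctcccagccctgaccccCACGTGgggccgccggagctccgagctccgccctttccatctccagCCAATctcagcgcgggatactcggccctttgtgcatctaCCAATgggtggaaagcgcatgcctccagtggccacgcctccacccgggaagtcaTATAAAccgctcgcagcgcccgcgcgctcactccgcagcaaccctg
Gadd45g: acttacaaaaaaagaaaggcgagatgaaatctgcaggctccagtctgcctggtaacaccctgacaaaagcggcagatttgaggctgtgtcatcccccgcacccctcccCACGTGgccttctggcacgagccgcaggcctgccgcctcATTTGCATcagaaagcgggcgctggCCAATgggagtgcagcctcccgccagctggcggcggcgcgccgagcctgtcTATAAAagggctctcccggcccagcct

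The 3 windows were not alike in these letters, and none of the marked motifs overlapped another. The Gadd45a window held the octamer in both orientations, beginning 97 and 70 bases before the start, with a CCAAT box between them at 86. The Gadd45g window held 1 octamer at 103, an E-box at 142, a CCAAT box at 78 and a TATA box at 27 bases before the start. The Gadd45b window had an E-box at 185, CCAAT boxes at 139 and 100 and a TATA box at 46, and no octamer in these letters. Among all 32851 RefSeq windows of this length, 1.6% held the octamer, 6.02% the E-box, 33.8% the CCAAT box and 12.4% the TATA box. All 7 members had a window, and the octamer was found in 2 of them, the E-box in 3 (Tdg as well), the CCAAT box in 5 (Tdg and Tet3 as well) and the TATA box in 2. CpG dinucleotides numbered 11 in the window of Gadd45a, 22 for Gadd45b, 16 for Gadd45g, 15 for Tet1, 51 for Tet2, 17 for Tet3 and 19 for Tdg, against a median of 6 over all windows. Every member thus lay above the median window in CpG number, though not all of them far above. The share of all windows with no more CpGs than the member ran from 66.5% (Gadd45a) to a rounded 100% (Tet2). These matches describe the letters and are not evidence of binding.

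**Figure D1:**
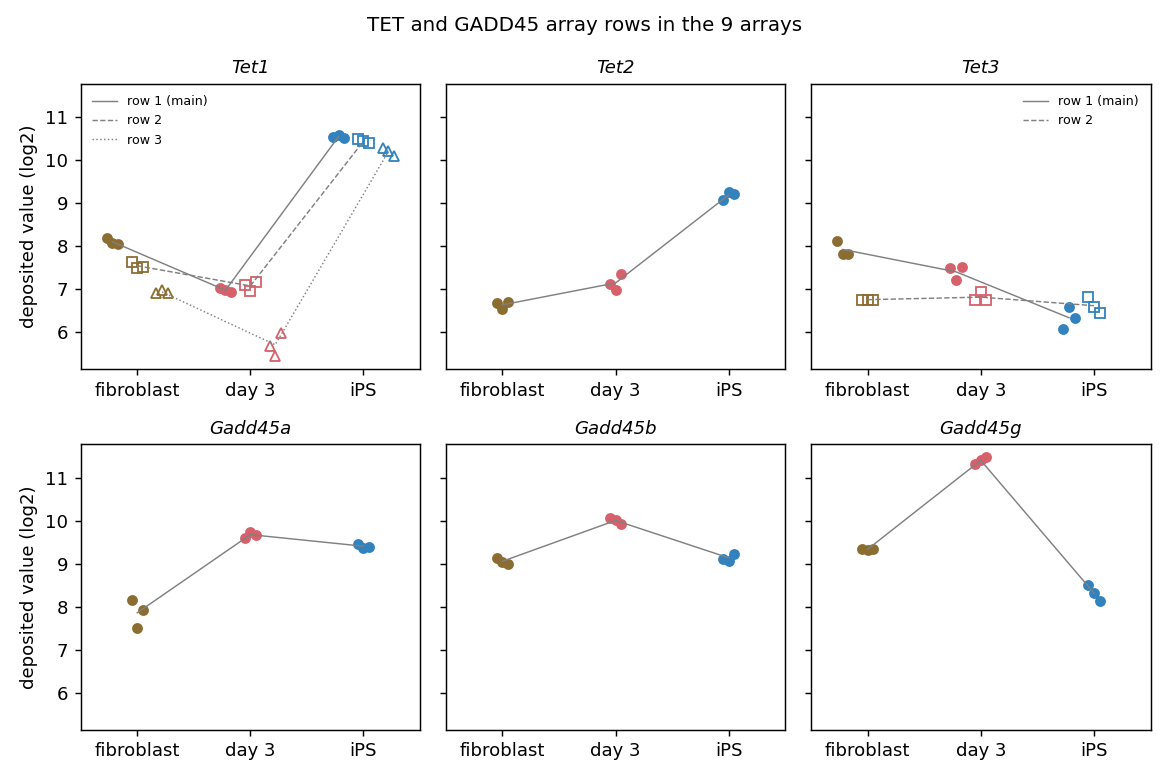
Deposited log2 value (vertical axis) of every TET and GADD45 array row in each of the 3 fibroblast, 3 day-3 and 3 iPS arrays; points are arrays, filled for the main row of a gene and open for its other rows, and lines join the group means. Tet1 dips from a mean of 8.10 to 6.97 and then reaches 10.55, Tet2 climbs to 9.19, Tet3 descends to 6.33 on its main row, and Gadd45g peaks at 11.41 on day 3.

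The TET genes parted during reprogramming: Tet1 fell at day 3 and was high in iPS cells, Tet2 rose in iPS cells, and Tet3 fell. A gene was called when its limma Benjamini-Hochberg adjusted p over all 19937 genes fell below 0.05 and it differed 2-fold or more, a log2 difference of 1. All values are on the deposited log2 scale. In bulk RNA, fewer cells expressing a gene and less of its RNA per cell cannot be told apart.

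The main Tet1 row read 8.18, 8.07 and 8.05 on the fibroblast arrays, 7.03, 6.98 and 6.92 at day 3 and 10.55, 10.58 and 10.52 in iPS cells. The 3 groups did not overlap, day 3 was lowest and iPS highest, and the spread within a group was small beside the gaps (SD 0.0696, 0.0542 and 0.0263, n = 3 each). Tet1 fell 2.19-fold at day 3, a log2 difference of -1.13 ± 0.0725 SE (n = 3 per group; limma with Benjamini-Hochberg adjustment, adjusted p = 1.79e-07), although doxycycline should switch on the introduced Tet1 and the arrays are labelled as induced. From day 3 to iPS it rose 11.9-fold (3.57 ± 0.0725; adjusted p = 2.19e-11), a rise matched or passed by 72 of 19937 genes, itself included. From fibroblasts to iPS cells it rose 5.45-fold (2.45 ± 0.0725; adjusted p = 1.37e-10).

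The other Tet1 rows kept the order of the groups but not the size of the steps. The second row read 7.63, 7.48 and 7.50 in fibroblasts, 7.10, 6.95 and 7.17 at day 3 and 10.49, 10.44 and 10.39 in iPS cells. The third read 6.90, 6.98 and 6.91, then 5.68, 5.44 and 5.98, then 10.29, 10.21 and 10.10. On every Tet1 row, then, the day-3 arrays lay below all fibroblast arrays and the iPS arrays above them. The day-3 difference was -0.46 ± 0.0838 on the second row, which is under 2-fold, and -1.23 ± 0.129 on the third (limma over all array rows, adjusted p = 0.00213 and 7.75e-05). The third row's day-3 readings lay below the day-3 array medians of 6.01 to 6.20, so the size of its fall and of its later rise of 4.50 ± 0.129 is less certain. The call of Tet1 at day 3 was lost after quantile normalization, where the difference was -0.997, and with the mean of its rows, where it was -0.941. The direction held in both.

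Tet2 encodes a TET enzyme without a DNA-binding CXXC domain of its own, and its readings lay higher at each stage. It read 6.67, 6.53 and 6.69 in fibroblasts, 7.11, 6.97 and 7.34 at day 3 and 9.08, 9.26 and 9.22 in iPS cells. Each group lay wholly above the one before. The day-3 difference from fibroblasts was 0.51 (95% interval 0.28 to 0.73; limma, Benjamini-Hochberg adjusted p = 0.00149), under the 2-fold line, so it was not called. Tet2 rose 4.13-fold from day 3 to iPS (2.05 ± 0.102 SE; adjusted p = 1.28e-08) and 5.88-fold from fibroblasts to iPS (2.56 ± 0.102; adjusted p = 1.28e-09, n = 3 arrays per group).

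Tet3, the TET gene best known from the oocyte and the zygote, went the other way. Its main row read 8.12, 7.82 and 7.81 in fibroblasts, 7.49, 7.21 and 7.50 at day 3 and 6.06, 6.59 and 6.33 in iPS cells. The groups followed each other downward without overlap. At day 3 the difference of -0.52 (95% interval -0.83 to -0.21; limma, Benjamini-Hochberg adjusted p = 0.0104) was under 2-fold. Tet3 fell by 1.07 on the log2 scale from day 3 to iPS (SE 0.141; adjusted p = 4.87e-05) and by 1.59 from fibroblasts to iPS (SE 0.141; adjusted p = 1.16e-06). The day-3 to iPS call was lost without the first iPS array, where the difference was -0.941. The iPS readings stood above 47% to 55.9% of the array rows. The fall thus ended near the iPS array medians of 6.20 to 6.23, and its size is less certain.

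The second Tet3 row did not follow the first. It read 6.75 on all 3 fibroblast arrays, 6.75, 6.93 and 6.75 at day 3 and 6.82, 6.59 and 6.43 in iPS cells, and the groups overlapped in all 3 comparisons. Exactly equal values on 5 of the arrays hide part of its spread. The iPS minus fibroblast difference was -0.14 (95% interval -0.38 to 0.10; limma over all array rows, adjusted p = 0.334). With the mean of both rows Tet3 was not called for iPS against day 3 (-0.635) or against fibroblasts (-0.863). The 12 fibroblast markers also declined from fibroblasts to iPS cells, with 10 called lower and 0 higher, and their part in the Tet3 fall was not tested.

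All 3 GADD45 genes read higher on every day-3 array than on any fibroblast array. Gadd45a and Gadd45g were called higher there, while Gadd45b stayed just under the 2-fold line. In iPS cells Gadd45a was above the fibroblasts, Gadd45g below them and Gadd45b not called. Gadd45a, the member of the family classically induced by DNA damage, read 8.15, 7.50 and 7.92 in fibroblasts, 9.61, 9.74 and 9.68 at day 3 and 9.46, 9.37 and 9.40 in iPS cells. The fibroblast arrays were all lower than the rest and also the most scattered (SD 0.332, against 0.0664 and 0.0449, n = 3 each). Gadd45a rose 3.53-fold at day 3 (1.82 ± 0.135 SE; limma, Benjamini-Hochberg adjusted p = 5.67e-07, n = 3 arrays per group) and stood 2.93-fold above fibroblasts in iPS cells (1.55 ± 0.135; adjusted p = 1.02e-06). The iPS arrays all lay just below the day-3 arrays, neighbours in this order, by -0.27 (95% interval -0.57 to 0.03; adjusted p = 0.137).

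Gadd45b, known as an early response gene of myeloid differentiation and of NF-kappaB and TGF-beta signalling, was not called in any comparison. It read 9.13, 9.05 and 9.0 in fibroblasts, 10.07, 10.02 and 9.93 at day 3 and 9.12, 9.07 and 9.22 in iPS cells. The day-3 arrays lay above all others, and the fibroblast and iPS arrays overlapped. The day-3 difference was 0.95 from fibroblasts (95% interval 0.78 to 1.12; limma, Benjamini-Hochberg adjusted p = 1.27e-06), just under 2-fold, and iPS minus day 3 was -0.87 (-1.04 to -0.70; adjusted p = 1.83e-06). Neither was called, but the first reached 1.11 after quantile normalization and 1.01 with array weights and was then called. The iPS minus fibroblast difference was 0.08 (95% interval -0.09 to 0.25; adjusted p = 0.441), and -0.0928 with array medians set equal.

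Gadd45g, known from cytokine signalling, neural differentiation and sex determination, had the sharpest day-3 peak of the 6 measured genes. It read 9.35, 9.33 and 9.35 in fibroblasts, 11.32, 11.42 and 11.48 at day 3 and 8.50, 8.33 and 8.14 in iPS cells. No 2 groups overlapped, and the iPS arrays were the lowest. It rose 4.2-fold at day 3 (2.07 ± 0.0948 SE; limma, Benjamini-Hochberg adjusted p = 1.47e-08, n = 3 arrays per group) and fell by 3.09 from day 3 to iPS (SE 0.0948; adjusted p = 3.24e-10). A rise of this size or more at day 3 was seen in 97 of 19937 genes, and a fall of this size or more from day 3 to iPS in 118, Gadd45g included. The fall from fibroblasts to iPS cells was small (-1.02 ± 0.0948; adjusted p = 1.81e-06). It was no longer called after quantile normalization (-0.853) or without the third iPS array (-0.927).

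**Figure D2:**
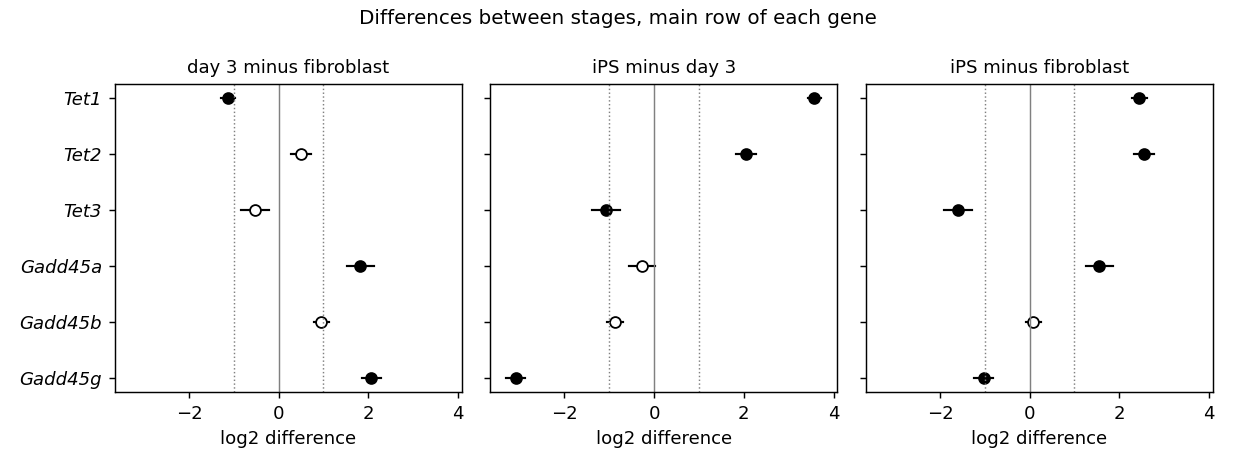
Log2 difference (horizontal axis) of the main row of each gene in the 3 comparisons, with 95% intervals from the moderated limma standard error (n = 3 arrays per group); filled points were called and dotted lines mark a 2-fold change. Tet1 changes sign between the first panel (-1.13) and the second (3.57), and Gadd45g does so in the opposite sense (2.07, then -3.09).

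Seen as a set, the 6 measured members moved more than most genes, in mixed directions. At day 3 against fibroblasts 2 were called higher (Gadd45a and Gadd45g) and 1 lower (Tet1), where 10.8% of all genes were called, 3.25% higher and 7.58% lower. For iPS against day 3, 2 were higher (Tet1 and Tet2) and 2 lower (Tet3 and Gadd45g), where 15.1% of all genes were called, 6.48% higher and 8.57% lower. For iPS against fibroblasts, 3 were higher (Tet1, Tet2 and Gadd45a) and 2 lower (Tet3 and Gadd45g), where 21.5% were called, 7.63% higher and 13.8% lower. At day 3 against fibroblasts the arrays did not overlap for 6 genes, 4 of them higher and 2 lower, where 53.1% of all genes were so separated, 24.8% higher and 28.3% lower. For iPS against day 3 this held for 6 genes, 2 higher and 4 lower, beside 49.5% of all genes (24.2% higher, 25.3% lower). For iPS against fibroblasts it held for 5, 3 higher and 2 lower, beside 65% of all genes (33.1% higher, 31.8% lower), so separation of the arrays was common here. Leaving out the third fibroblast array gave 3, 4 and 5 called members, as with it, and at day 3 Tet1 was then at -1.15, Gadd45a at 1.85 and Gadd45g at 2.07. The median absolute log2 difference of the members was 1.04, 1.56 and 1.57 in the 3 comparisons, beside 0.24, 0.23 and 0.32 over all genes. Dim genes are among all genes. Of the 9968 genes above the median mean level, all 6 members among them, 17.8%, 24.2% and 34.6% were called. The comparisons share arrays, and the members were chosen with earlier results known, so these counts are a description.

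Paralogs were compared by the change of their log2 difference within each array, which does not set the level of a row against that of another. Of 18 such comparisons, 16 reached the smallest exact two-sided permutation p that 3 arrays against 3 allow, 0.1 (Benjamini-Hochberg adjusted p = 0.112), and none can pass 0.05 in this design. Tet1 moved down against Tet2 by 1.64 ± 0.141 SE at day 3 and up against it by 1.53 ± 0.14 from day 3 to iPS. Over the whole course they differed by -0.11 ± 0.0771 (exact permutation p = 0.2, adjusted p = 0.212, n = 3), which does not show that they act alike. With the mean of the Tet1 rows that difference was 0.319, the opposite sign.

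Tet3 parted from both of its relatives. From fibroblasts to iPS cells Tet1 gained 4.04 ± 0.158 and Tet2 4.14 ± 0.141 on Tet3. In the GADD45 family, the day-3 rises of Gadd45a and Gadd45g differed by -0.25 ± 0.191 (exact permutation p = 0.4, adjusted p = 0.4, n = 3). From day 3 to iPS Gadd45a then gained 2.82 ± 0.0977 on Gadd45g. Gadd45b gained 2.22 ± 0.162 on Gadd45g in the same step.

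**Figure D3:**
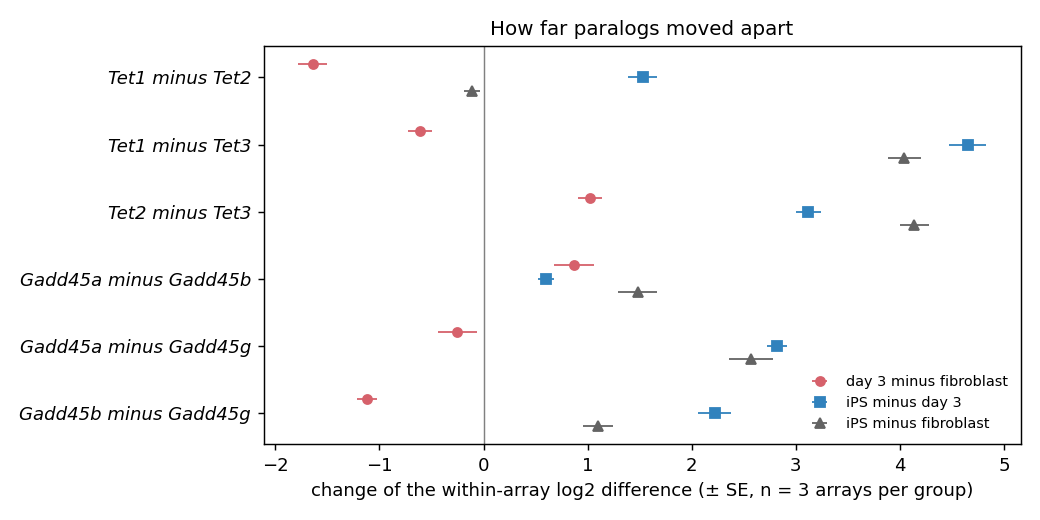
Change between stages of the within-array log2 difference between a pair of paralogs (horizontal axis, points ± SE, n = 3 arrays per group). The Tet1 minus Tet2 points lie at -1.64 and 1.53 for the successive steps and at -0.11 over the whole course, whereas Tet1 minus Tet3 and Tet2 minus Tet3 end at 4.04 and 4.14.

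For each member the 3 genes with the closest course over the 9 arrays were found as those with the smallest root mean square difference after centring each gene on its own mean, among 18547 genes without clone or predicted names. For Tet1 they were Igfbp2 (0.254 in log2 units), Cdyl2 (0.259) and Zfp57 (0.262), the last a zinc finger gene of imprint maintenance. Their day-3 differences from fibroblasts were -1.66, -0.60 and -1.62. The root mean square difference grows with the size of a gene's changes, so it is not set side by side between members. For Tet2 they were Uhrf1 (0.0964), which encodes the factor that brings the maintenance methyltransferase to replicated DNA, Nipsnap1 (0.107) and Ranbp17 (0.108). For Tet3 they were Map6 (0.113), Tmem150a (0.113) and Eea1 (0.117).

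Among the GADD45 genes, Gadd45a was closest to the long noncoding RNA gene Malat1 (0.123), Atad3a (0.15) and the immediate early gene Arc (0.152). Gadd45b was closest to Cdca7l (0.0775), Spata13 (0.0776) and Acad8 (0.0906), which differed by 1.04, 0.99 and 1.00 at day 3. Gadd45g was closest to the integrin gene Itgb8 (0.187), Plcl1 (0.193) and Cdc42ep3 (0.195), which differed by 2.07, 2.19 and 2.43 at day 3 and by -3.27, -3.25 and -3.43 from day 3 to iPS. No list of neighbours was shared between members. These matches over 9 arrays in 3 groups are descriptions of course only. The stage differences quoted for the matched genes come from the same readings that chose them.

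Downstream of TDG act the genes of base excision repair, listed here with the DNA glycosylases. Of 19 listed genes 18 were measured. At day 3 only Parp1, the poly(ADP-ribose) polymerase that senses strand breaks, was called higher (8.94 in fibroblasts, 10.11 at day 3) and 0 were lower. The median difference of the list was 0.14 beside 0.05 over all genes, of which 10.8% were called. From day 3 to iPS 7 were higher, 0 lower and 11 not called, where 6.48% of all genes were called higher and 8.57% lower, with a median of 0.35 beside -0.01 over all genes. The uncalled ones ran from Aptx at -0.71 to Apex2 at 0.56. Those called higher were the uracil glycosylase gene Ung (2.62 ± 0.0838 SE), the ligase gene Lig1 (2.40 ± 0.0728), the methyl-CpG-binding thymine glycosylase gene Mbd4 (1.56 ± 0.0965), Parp1 again (1.36 ± 0.0858), the adenine glycosylase gene Mutyh (1.18 ± 0.102), the flap endonuclease gene Fen1 (1.06 ± 0.0749) and the abasic site endonuclease gene Apex1 (1.03 ± 0.0805; limma, Benjamini-Hochberg adjusted p at most 1.33e-06). Apex1 fell short of 2-fold after quantile normalization (0.99), and Apex1 and Fen1 did so with array medians set equal (0.917 and 0.947). Lig1, Fen1 and Ung also serve replication. The glycosylase gene Neil3 stood at 7.67, 6.68 and 6.70, a difference of -0.99 at day 3 that became a call (-1.04) only with array medians set equal, and the scaffold gene Xrcc1 and Lig3 were not called in any comparison.

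Of 18 listed genes that supply, bind or modify TET enzymes 17 were measured. Only Cxxc5, a CXXC protein related to those that bind TET2, was called at day 3, where it was lower by 1.72 (difference -1.72 ± 0.0918). From day 3 to iPS 3 were called higher and 0 lower. They were Prdm14 (2.73 ± 0.103), a pluripotency regulator that represses de novo methylation, the corepressor gene Sin3a (1.50 ± 0.109) and the vitamin C transporter gene Slc23a2 (1.27 ± 0.0873). The share called in either direction was near the 15.1% of all genes called in that step, of which 6.48% were higher and 8.57% lower. The isocitrate dehydrogenase genes, which make 2-oxoglutarate, were not called: Idh1 stood at 11.18, 11.35 and 10.82 and Idh2 at 10.76, 11.03 and 10.84 in fibroblasts, day-3 and iPS cells. Ogt, whose product binds TET proteins, stood at 10.12, 10.07 and 10.20. Of 4 measured APOBEC deaminase genes, Apobec1 was lower at day 3 (-1.34 ± 0.0768), and Apobec3 (2.02 ± 0.15) and Apobec2 (1.64 ± 0.119) rose from day 3 to iPS. Of all genes 10.8% were called at day 3 and 15.1% from day 3 to iPS.

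Genes of the opposing activity were also called higher from day 3 to iPS cells. Of 5 genes listed as DNA methylation writers 0 were called at day 3, with Dnmt3a at 0.79 ± 0.0808 and Dnmt1 at -0.26 ± 0.0735. The list includes Dnmt3l and Uhrf1, which encode cofactors rather than methyltransferases. From day 3 to iPS 3 of the 5 were higher, Dnmt3l (5.62 ± 0.142), Dnmt3b (2.88 ± 0.149) and Uhrf1 (2.14 ± 0.0806), and 0 were lower. Of all genes 10.8% were called at day 3, and 6.48% were called higher and 8.57% lower from day 3 to iPS. Dnmt1 (0.90) and Dnmt3a (0.94) stayed under 2-fold there.

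**Figure D4:**
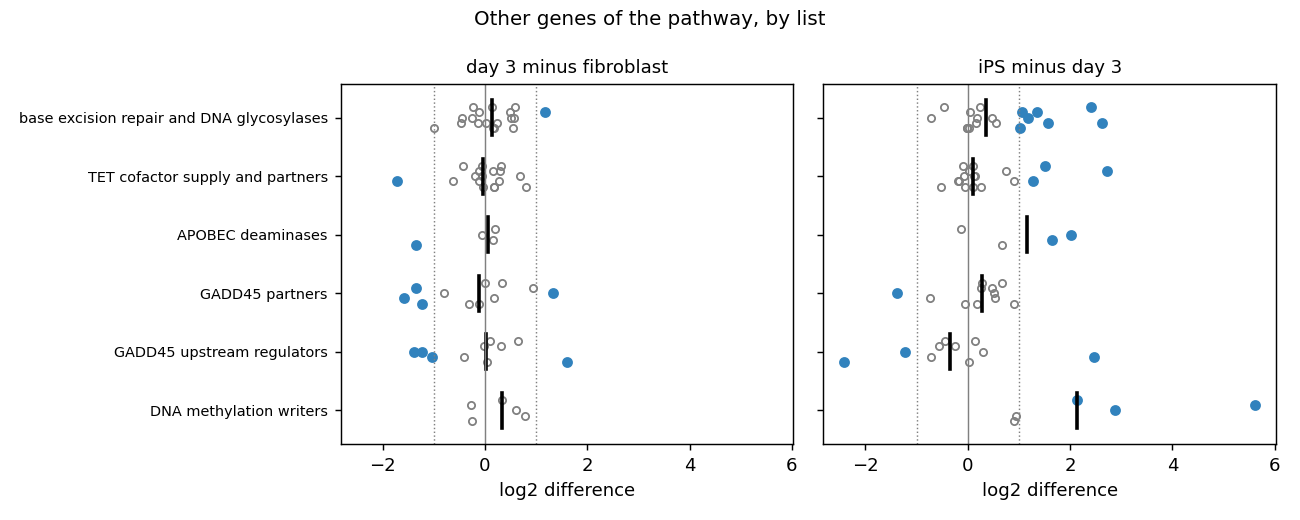
Log2 difference (horizontal axis) of each measured gene in 6 lists of related genes, at day 3 against fibroblasts and in iPS cells against day 3; filled points were called, open points were not, black bars are list medians and dotted lines mark a 2-fold change. In the base excision repair list 1 gene is called at day 3 and 7 in iPS cells, all higher.

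Around the GADD45 genes the changes at day 3 were mixed. Of 13 listed partners 11 were measured. At day 3 against fibroblasts 1 was called higher and 3 lower, where 3.25% of all genes were called higher and 7.58% lower. The nuclease gene Ercc5, whose XPG protein has been linked to GADD45A in repair-based demethylation, rose at day 3 and fell again: it was higher by 1.34 ± 0.0971 at day 3 and lower by 1.39 from day 3 to iPS (difference -1.39 ± 0.0971), with means of 8.38, 9.72 and 8.33. The kinase genes Cdk1 (-1.23 ± 0.0729) and Mapk11 (-1.59 ± 0.0927) and the GADD45-binding Gadd45gip1 (-1.34 ± 0.0894) were lower at day 3. The GADD45 target kinase gene Map3k4 stood at 8.11, 7.99 and 8.15. In iPS cells against fibroblasts Pcna (1.01 ± 0.147) and Npm1 (1.41 ± 0.134) were higher, and Mapk11 (-2.33 ± 0.0927) and Gadd45gip1 (-1.09 ± 0.0894) were lower. In that comparison 7.63% of all genes were called higher and 13.8% lower. Pcna fell short of 2-fold with array medians set equal (0.841), and Gadd45gip1 after quantile normalization (-0.931).

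Of 12 listed regulators of GADD45 genes 10 were measured, and at day 3 only Myc was called higher. Ddit3 (-1.39 ± 0.115), the NF-kappaB subunit gene Rela (-1.04 ± 0.0866, and -0.906 after quantile normalization) and Smad3 (-1.23 ± 0.0842) were lower. Of all genes 3.25% were called higher and 7.58% lower in that comparison. Atf4 stood at 9.80, 9.84 and 9.86, Egr1 at 10.63, 10.95 and 10.70 and Foxo3 at 8.72, 9.37 and 8.94, none of them called. Myc, an introduced factor known to repress Gadd45a, was higher at day 3 (9.84, then 11.44) and lower again in iPS cells (9.02). From day 3 to iPS 1 of the 10 was called higher and 2 lower, where 6.48% of all genes were called higher and 8.57% lower. The 1 higher was Brca1 (2.47), a DNA repair gene that regulates Gadd45a. The 2 lower were Myc (-2.42 ± 0.0761) and Smad3 (-1.22 ± 0.0842). The median of the 10 was 0.01 at day 3, beside 0.05 over all genes.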

How the data were processed

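Total RNA from each of 9 samples was hybridised to a mouse whole-transcript Affymetrix array after biotin labelling with a terminal labelling kit, per the labels' protocols. The authors deposited 1 table of log2 values for 34760 rows and 9 arrays. How they summarised and normalised these values is not given in the sources used here. Array medians lay at 6.01 to 6.23, and the values were used as deposited. Signal over background was not measured, and 3 arrays per group limit the precision.

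Symbols came from a probe table of the platform: 21640 rows had 1 symbol, 1321 several and 11799 none. For each of 19937 genes the row with the largest mean stood for the gene. Of the rows with 1 symbol, 21553 matched RefSeq (GRCm38.p6) by gene identifier. Groups came from the sample titles. The labels do not state whether the 3 arrays of a group are separate cultures, and p-values then reflect only their spread, possibly a technical one.

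One model (limma 3.58.1, R 4.3.3) covered all 9 arrays (lmFit and eBayes; Benjamini-Hochberg over all genes), called at an adjusted p under 0.05 and at least 2-fold. Every gene past 2-fold also passed the adjusted p (highest 0.0225, 0.00923 and 0.00966 in the 3 comparisons). Rows other than the main one were tested in the same fit over all 34760 rows. The fit was checked on simulated data. Intervals use the moderated standard error. The genes named are the members, their 3 closest genes each, called members of the pathway lists with uncalled ones chosen after their values were seen, and the introduced factors. Members and lists were chosen with earlier results of these data known. Replicate numbers were not used to pair arrays in the main fit, because the labels do not say that they mark paired cultures. Deviations of same-numbered arrays from their group means correlated at -0.0979 to 0.0618 across genes, none of 9 pairs above 0.1. Differently numbered arrays gave -0.132 to 0.13, with 2 of 18 pairs above 0.1. These correlations cannot show whether cultures were paired, because deviations from a mean of 3 arrays depend on each other.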

Additional observations from a re-analysis of the deposited data

Results flagged for a closer look

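The 4 rows that name both Tdg and its pseudogene Tdg-ps2 were not assigned to either gene, but 3 of them carried a signal above the fibroblast arrays. At day 3 against fibroblasts the log2 differences of these 3 were 1.89 ± 0.22 SE, 1.67 ± 0.0944 and 1.48 ± 0.0925 (limma over all array rows, Benjamini-Hochberg adjusted p = 0.000152, 2.12e-06 and 3.62e-06, n = 3 arrays per group). They read 7.82 to 8.32, 7.95 to 8.12 and 8.04 to 8.29 in fibroblasts, 9.38 to 10.20, 9.59 to 9.78 and 9.51 to 9.77 at day 3 and 9.63 to 9.79, 9.65 to 9.88 and 9.53 to 9.55 in iPS cells. The day-3 and iPS arrays overlapped on each. The remaining row was dim, at 3.00 to 4.20 over all 9 arrays, and its day-3 difference was 0.47 ± 0.27 (adjusted p = 0.215). How much of this comes from Tdg was not tested.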

How the results depend on the processing

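Each comparison was recomputed under 22 alternatives. Placing the third fibroblast array with the day-3 arrays left 0 members called at day 3 against fibroblasts (limma, 0 of 19937 genes, 5359 at an unadjusted p under 0.05) and Tet1, Gadd45a and Gadd45g at -0.883, 1.42 and 1.56. The standard errors of these 3 differences were then 0.288, 0.475 and 0.538, beside 0.0725, 0.135 and 0.0948 in the main fit. The cause of the lost calls was not tested. This placement also turned the uncalled Gadd45a difference between iPS and day 3 to 0.17. The Gadd45g call for iPS against fibroblasts ended as well (limma, adjusted p = 0.202). Leaving out single arrays gave 3 called members at day 3, 3 to 4 for iPS against day 3 and 4 to 5 for iPS against fibroblasts. All other alternatives kept the numbers of members called within 1.5 times, although Tet1, Tet3, Gadd45b and Gadd45g crossed the 2-fold line under the settings given with them. Setting array medians equal moved the uncalled Gadd45b difference between iPS and fibroblasts to -0.0928, and the mean of rows moved Tet1 minus Tet2 over the whole course to 0.319. Setting medians equal also moved the median gene from 0.05 to -0.12 for iPS against fibroblasts and from -0.01 to -0.13 for iPS against day 3. Testing against a 2-fold change (limma treat) left 1140, 1931 and 2973 genes, from 2159, 3001 and 4283 in the 3 comparisons, and ended the calls of Tet1 at day 3, Tet3 for iPS against day 3 and Gadd45g for iPS against fibroblasts. Array weights were estimated without full convergence. With the replicate number as a block 3, 4 and 5 members were called, as without it, and no member's call changed. List counts under other scalings were added after seeing the data. Dim readings limit the third Tet1 row at day 3 and Tet3 in iPS cells.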
